A study of Danio rerio with 2 samples.

Results

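Immediate early genes are switched on within minutes when a cell is stimulated or handled, without new protein synthesis. They were examined here in cells sorted from zebrafish larvae, because dissociation of a tissue into single cells is itself such a stimulus. The 10 genes looked for were fosab, fosb, junba, junbb, jun, EGR1, ATF3, ier2, btg2 and DDIT4. A row of the deposited table was taken as a member when its symbol, in any case, equalled one of these names, or equalled a name without its final letter where the table gives an upper-case name. The rule found 10 rows among 17668 genes. Of these, 9 were measured well above the lowest values of the table and are described in depth.

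The data set holds 1 library of GFP(+) cells and 1 library of GFP(−) cells. Both came from ppv3b:GFP larvae at 5 dpf, so the transgene is shared by the 2 groups and only the sort on GFP separates them. In this line GFP marks HCs predominantly but not only, both in the ear and in the neuromasts of the lateral line, and the GFP(−) library stands for the remaining cells of the larva. Larvae were dissociated with trypsin and trituration, filtered and sorted before RNA, polyA by the labels, was sequenced. How many larvae were combined is not given in the sources used here. Both populations went through this procedure and no undissociated larva was sequenced, so induction by handling cannot be told apart from expression in the living fish.

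Values are quantile-normalized reads per gene with a floor of 20, called normalized reads here. They are not divided by transcript length, so a gene's reads do not give its abundance relative to another gene. Ranks and likeness of pattern below are by reads. Each library sums to 19035170.5, and its sequencing depth is unknown. With 1 library per population there is no replicate error and no test, and every ratio below compares 2 libraries. In bulk RNA, fewer cells that express a gene and less RNA per cell cannot be told apart.

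In cells of vertebrates, growth factor, calcium and stress signals reach immediate early genes through MAP kinases that activate serum response factor, its ELK partners, CREB and JUN. The FOS and JUN proteins pair as the transcription factor AP-1, EGR proteins bind GC-rich promoters, and ATF3 joins the response under stress. Phosphatases of the DUSP family, mRNA decay factors of the ZFP36 family and antiproliferative BTG proteins then bring the response down.

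Reads of these genes were plentiful in both populations. The 10 rows together held 1.22% of all normalized reads in the GFP(−) library against 0.899% in the GFP(+) library, and their summed value was 1.36-fold lower in GFP(+) cells. Ordered by reads, 7 of the 10 were among the top 250 genes of each library. The exceptions were DDIT4, IER2 in GFP(−) cells, and a row near the floor. The members did not share a direction. DDIT4, egr1, FOS, JUNB, ATF3 and FOSB were lower in GFP(+) cells, BTG2 and JUN were nearly level or slightly higher, and IER2 was higher.

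**Figure D1:**
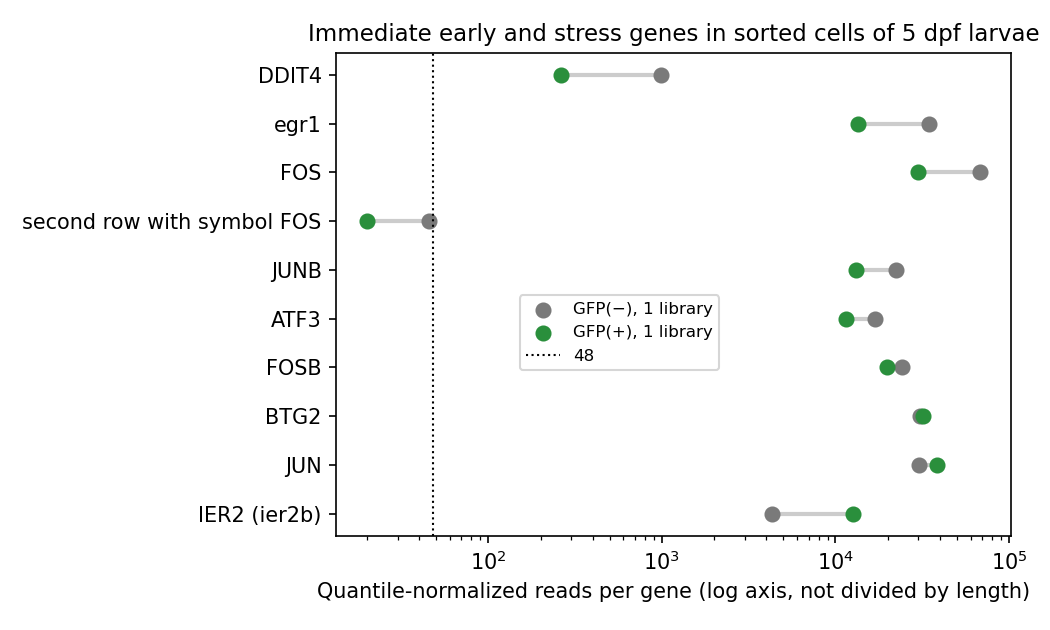
Quantile-normalized reads (x axis, logarithmic) of the 10 rows (y axis, ordered by ratio) in the GFP(−) library (grey) and the GFP(+) library (green), 1 value each without error. The dotted line marks 48, up to which GFP(+) values are not separate measurements. The grey point lies to the right of the green point for the rows from DDIT4 to FOSB, and IER2 shows the widest gap in the other direction, from 4303.5 to 12622 normalized reads.

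Among the FOS genes, which encode the AP-1 subunits that need a JUN partner, FOS (ENSDARG00000031683) had 68056 normalized reads in the GFP(−) library against 29785.5 in the GFP(+) library. It was thus 2.28-fold lower in GFP(+) cells, a log2 ratio of −1.19. No row was named fosab itself, and this row was found as fosb without its final letter, like the second FOS row below. The row carries the upper-case name FOS, and fos is a synonym of fosab in the RefSeq annotation of zebrafish, but whether it is fosab was not settled. FOSB (ENSDARG00000055751) had 24088.5 and 19862.5 normalized reads, a 1.21-fold difference with a log2 ratio of −0.28. The reads of FOS and FOSB summed to a log2 ratio of −0.89. A second row with the deposited symbol FOS (ENSDARG00000068428), named si:ch211-153j24.3 in the table of identifiers, had 45.5 normalized reads in GFP(−) cells and stood at the floor in GFP(+) cells. Both of its values lie in the lowest range of the table, and no fold is given for it.

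The JUN genes, whose proteins can pair with FOS or with each other, lay on both sides of equality. JUN (ENSDARG00000043531) had 30331.5 normalized reads in the GFP(−) library against 38410 in the GFP(+) library, 1.27-fold higher with a log2 ratio of 0.34. JUNB (ENSDARG00000074378) had 22273 and 13202, 1.69-fold lower with a log2 ratio of −0.75. The name JUNB was reached by both junba and junbb, and which of these copies the row stands for was not determined. The ratio of JUN to FOS reads, in which transcript length cancels when libraries are compared, was 0.446 in the GFP(−) library against 1.29 in the GFP(+) library, a 2.89-fold difference between the libraries. Together FOS, FOSB, JUNB and JUN held 0.760% of the normalized reads of GFP(−) cells and 0.532% of those of GFP(+) cells.

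egr1 (ENSDARG00000037421), a zinc finger factor that responds to serum response factor and ELK, had 34653.5 normalized reads in the GFP(−) library against 13534 in the GFP(+) library. It was 2.56-fold lower in GFP(+) cells, close to FOS. ATF3 (ENSDARG00000007823), a stress-inducible partner of JUN, had 16796 and 11524.5 normalized reads, a 1.46-fold difference with a log2 ratio of −0.54. Relative to egr1, JUN was 3.24-fold more represented in GFP(+) than in GFP(−) cells.

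IER2 (ENSDARG00000086881), a nuclear protein encoded by a short early response gene, had the highest ratio of the members. It had 4303.5 normalized reads in the GFP(−) library against 12622 in the GFP(+) library, 2.93-fold higher with a log2 ratio of 1.55. The table of identifiers names this row ier2b, and ier2a was not analysed here. The gap between the log2 ratios of IER2 and egr1 was 2.91, a 7.51-fold difference in their relative reads.

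BTG2 (ENSDARG00000020298), an antiproliferative gene that responds to DNA damage as well as to early signals, had 30524.5 normalized reads in the GFP(−) library against 31961.5 in the GFP(+) library. With a log2 ratio of 0.07 it was the member nearest to equality. DDIT4 (ENSDARG00000037618), an inhibitor of mTORC1 induced by hypoxia, glucocorticoids and energy stress, lay at the other end. It had 989.5 normalized reads in the GFP(−) library against 263 in the GFP(+) library, 3.76-fold lower with a log2 ratio of −1.91. DDIT4 was also the least read of the 9 well measured members in both libraries.

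At least 3-fold lower in GFP(+) cells was 1 of the 10 rows, DDIT4, against 16.4% of all genes. None was at least 3-fold higher, against 16.9% of all genes. At a 2-fold limit, 4 rows were lower, namely DDIT4, egr1, FOS and, by its deposited values, the row near the floor, against 25.7% of all genes, and 1 was higher, IER2, against 25.3%. With 10 rows, a single gene is 10% of the members. The median log2 ratio of the 10 rows was −0.65, and that of the 9 well measured rows −0.54, beside −0.10 over all 17668 genes. Genes of higher level, 2674 with a mean of 1000 or more, had a median of −0.06, and 25.1% of them were at least 2-fold lower and 27.6% at least 2-fold higher.

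**Figure D2:**
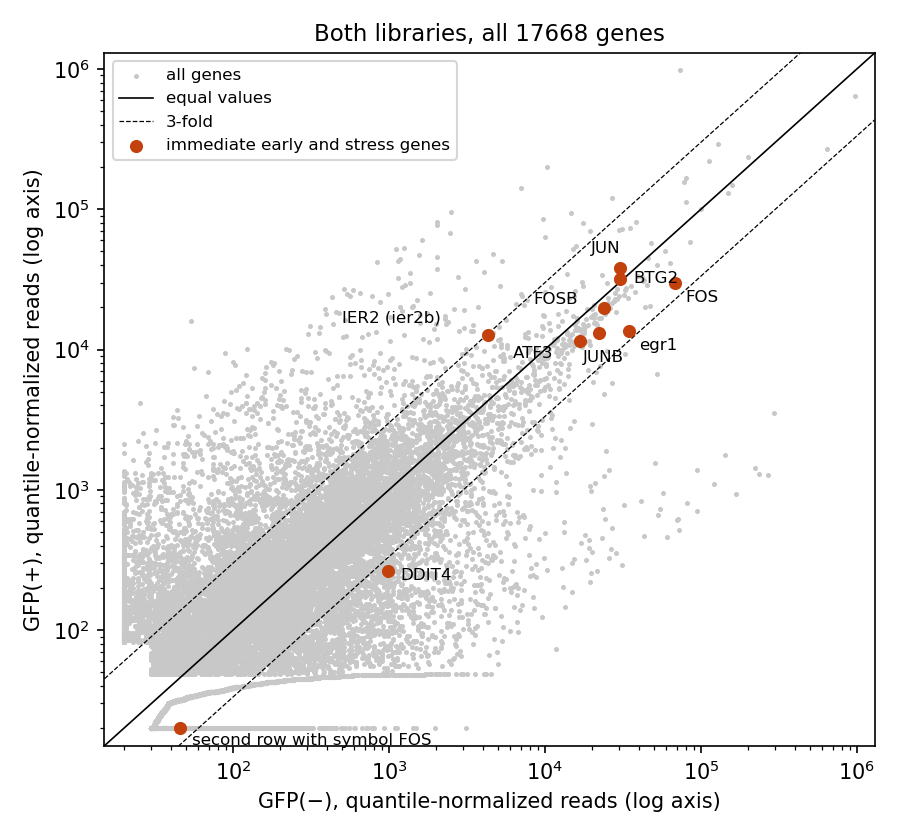
Normalized reads in GFP(−) cells (x axis) and GFP(+) cells (y axis) of all 17668 genes (grey) and the 10 rows (orange), both axes logarithmic, with lines of equality and of a 3-fold difference. DDIT4 lies below the lower dashed line and IER2, at 2.93-fold, just inside the upper one. The curve and line of grey points under a GFP(+) value of 48 hold 3329 genes whose GFP(+) values are not separate measurements.

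Quantile normalization keeps the order of genes within a library, so each member can also be followed by its rank in reads. FOS moved from rank 27 in GFP(−) cells to rank 64 in GFP(+) cells, egr1 from 52 to 189 and JUNB from 102 to 194. JUN moved the other way, from 62 to 48, BTG2 from 61 to 58 and IER2 from 579 to 206. Ranks also depend on the genes that surround a member. Of the 50 genes that stood above FOS in GFP(+) cells alone, 13 belonged to a list of 27 genes of epidermis and other epithelium. For egr1 this was so for 16 of 158. The list holds epcam, krt8 and TP63 too, so it does not mark the superficial layer of the skin alone. It is 27 of all 17668 genes, was chosen with earlier results of these data known, and 25 of its genes were higher in GFP(+) cells. In the opposite direction, 13 genes stood above FOS in GFP(−) cells alone, and how many of them are in the list was not counted. The part of the list in the ranks of the members was not tested.

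Marker genes of other cell types also differed between the libraries. Of all genes, 47.5% were higher in GFP(+) cells and 52.4% lower. Of 28 rows of a list of HC genes, 25 were higher in GFP(+) cells and 3 lower. A GFP(+) value of up to 48 was held by 1 of the 28, against 18.8% of all genes. The 28 rows held 0.0293% of the normalized reads of GFP(−) cells and 0.555% of those of GFP(+) cells. Of these genes ATOH1, CDH23 and tmie were at the floor in GFP(−) cells, and the highest in reads were pvalb8, pvalb9 and OTOF, 22.5-fold, 37.9-fold and 28.6-fold higher in GFP(+) cells. The list of epidermis and other epithelium held 1.08% of the reads of GFP(−) cells and 11.2% of those of GFP(+) cells. Of its 27 genes 25 were higher, and its values ran from 199.5 to 978726 in GFP(+) cells. Its most abundant genes were the keratins krt4, cyt1 and cyt1l, 13.3-fold, 19.6-fold and 20.3-fold higher. The leukocyte list held 0.121% and 0.0299%, with 16 of 18 genes lower in GFP(+) cells, among them lyz, MMP9 and mmp13a, the highest in reads. Higher were nccrp1, by 3.32-fold, and an MPEG1 row (ENSDARG00000043093), by 3.56-fold. The other MPEG1 row (ENSDARG00000055290) was 5.17-fold lower. Of these 18 genes 7 had GFP(+) values of up to 48, against 18.8% of all genes. The endothelium list held 0.0339% and 0.0195%, with 17 of 18 lower. The exception was SOX7, with 275 and 2605.5 normalized reads, and without it the shares were 0.0325% and 0.00578%. The neuron list held 0.0683% and 0.0107%, with 23 of 24 lower. GFP(+) values of up to 48 were held by 8 of the 18 endothelium and 10 of the 24 neuron genes, against 18.8% of all genes. The skeletal muscle list held 0.0223% and 0.0286%, with 8 genes higher and 8 lower. Their part in the ratios of the immediate early genes was not tested.

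In the rest of the AP-1 family, 11 of 14 rows were lower in GFP(+) cells, against 52.4% of all genes. The 11 include a JDP2 row (ENSDARG00000040137, 43 and 20 normalized reads) and ATF2 (34.5 and 25). Both values of these rows are under 48, so their direction is uncertain. At least 2-fold lower were 6 (42.9%), or 5 with GFP(+) values of up to 48 set to 48, against 25.7% of all genes. At least 2-fold higher was 1 (7.14%), against 25.3%. The median log2 ratio of the 14 rows was −0.76. fosaa (ENSDARG00000040135), a zebrafish FOS gene, had 2712.5 and 774 normalized reads, 3.50-fold lower. FOSL1 and FOSL2, Fos-related subunits without a strong activation domain, were 2.32-fold and 2.07-fold lower, with 12352.5 against 5333.5 and 10776.5 against 5215 normalized reads. JDP2 (ENSDARG00000020133), a repressor that pairs with JUN, was 2.32-fold lower, and a second JDP2 row was at the floor in GFP(+) cells. JUND (ENSDARG00000067850), the JUN protein least dependent on stimulation, was level at 1989.5 and 2122. So was the small MAF gene maff, at 3746.5 and 3668.5. Of the ATF genes, atf4b had a log2 ratio of −0.40, and the pair of ATF7 genes had −0.73 and 0.58. ATF2 had values of 34.5 and 25, too low for a fold. BATF3 had 35.5 normalized reads in the GFP(−) library against 103.5 in the GFP(+) library.

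The other immediate early genes ranged from 25.5-fold lower to 5.89-fold higher. Of 30 rows, 13 (43.3%) were at least 2-fold lower in GFP(+) cells, against 25.7% of all genes. With GFP(+) values of up to 48 set to 48, 12 were. At least 2-fold higher were 6 (20%), against 25.3% of all genes. The median log2 ratio of the 30 rows was −0.76. The lowest were NPAS4 (ENSDARG00000055752), an early gene induced by calcium in neurons, with 4321 against 169.5 normalized reads, 25.5-fold lower, and CCN1 (ENSDARG00000023062), a matricellular protein gene driven by serum response factor and YAP, with 19338 against 1067.5, 18.1-fold lower. The next was mych, a MYC-type factor, 7.48-fold lower. Among rows with a mean of at least 100, the highest were genes of KLF factors and csrnp1a. Under that mean, irf1a had 25.5 normalized reads in the GFP(−) library against 143.5 in the GFP(+) library, and its ratio lay between those of KLF4 and klf2b. KLF4 (ENSDARG00000079922), a factor of epithelial barrier formation, was 5.89-fold higher, with 549 and 3232.5 normalized reads. klf2b (ENSDARG00000040432) was 4.70-fold higher, with 3024 and 14223.5, and csrnp1a was 4.39-fold higher.

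The EGR family, singled out after its values were seen, was spread as well. EGR3 (ENSDARG00000089156) had 1398 normalized reads in the GFP(−) library against 5501.5 in the GFP(+) library, with a log2 ratio of 1.98. egr2a had 1337 and 1908.5, a log2 ratio of 0.51. egr4 (ENSDARG00000077799) had 1638.5 and 314.5, a log2 ratio of −2.38, and EGR2 was at least 3.44-fold lower, with 165 normalized reads in GFP(−) cells and a GFP(+) value of up to 48. EGR3 and egr1 thus lay on opposite sides of equality.

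**Figure D3:**
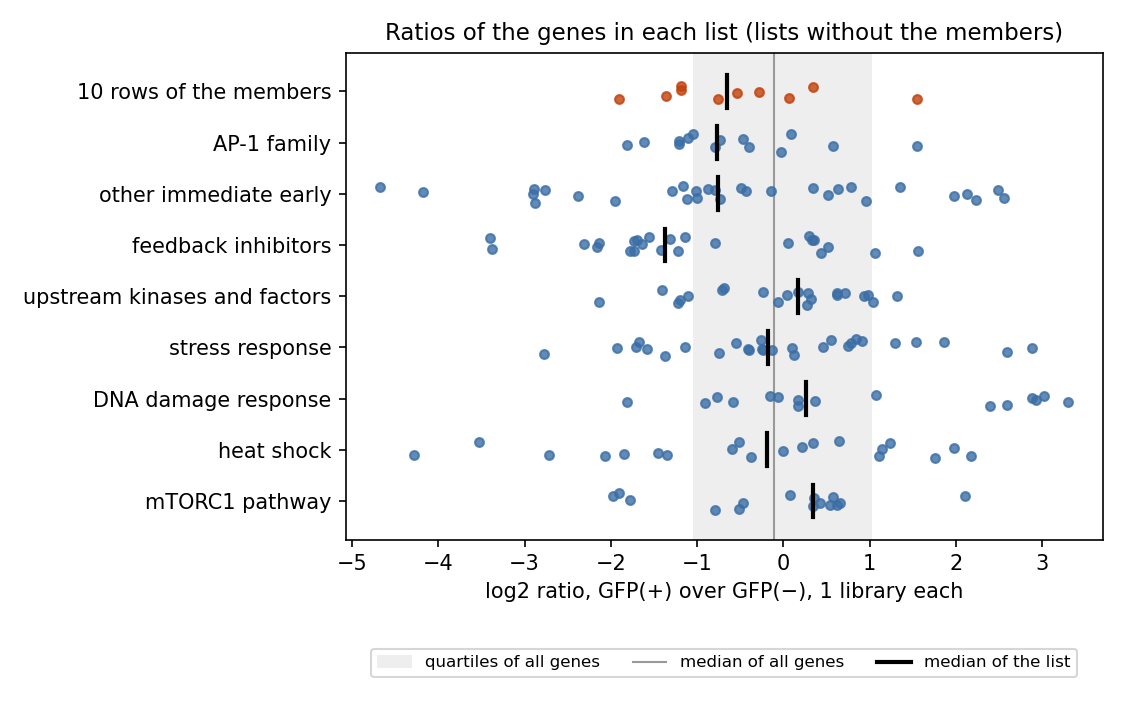
Log2 ratios of GFP(+) to GFP(−) values (x axis) for the 10 rows (orange) and for the genes of 8 lists without them (blue), 1 point per gene with the vertical position jittered. Black bars are list medians, the grey line and band the median and quartiles of all genes, −1.03 and 1.01. The medians run from −1.37 for feedback inhibitors to 0.35 for genes of the mTORC1 pathway.

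Genes listed as feedback inhibitors of the response were mainly lower in GFP(+) cells. Of 24 rows of this list besides BTG2, 15 (62.5%) were at least 2-fold lower and 2 (8.33%) at least 2-fold higher, against 25.7% and 25.3% of all genes. Both rows of SOCS3, ZFP36L1, DUSP8 and PER1 are among the 15. PER1 and PER2, which the list also holds, are genes of the circadian clock. The median log2 ratio of the 24 was −1.37. Both SOCS3 rows, inhibitors of cytokine signalling, were lower, by 10.6-fold (ENSDARG00000026611, 6789.5 against 641 normalized reads) and 4.97-fold (ENSDARG00000025428, 15322.5 against 3080). ZFP36L1 (ENSDARG00000021443), which promotes decay of early mRNAs, was 10.4-fold lower. DUSP4, DUSP6 and both DUSP8 rows, phosphatases of MAP kinases, had log2 ratios from −1.78 to −1.56. In contrast nfkbiaa, an inhibitor of NF-κB, was 2.94-fold higher, with 7682.5 and 22589.5 normalized reads, DUSP5 was 2.08-fold higher and SOCS1 1.44-fold higher. BTG1, the relative of BTG2, was as level as BTG2, at 16175 and 16796.

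Upstream of the members, 21 kinases and factors had a median log2 ratio of 0.17. Of these 5 (23.8%) were at least 2-fold lower and 2 (9.52%) at least 2-fold higher, against 25.7% and 25.3% of all genes. SRF, the serum response factor, had 416.5 normalized reads in the GFP(−) library against 509.5 in the GFP(+) library. ELK1 had 1172.5 and 1202.5. MAPKAPK2, a kinase downstream of p38, was 2.49-fold higher, and RPS6KA3 (ENSDARG00000035556), a ribosomal S6 kinase, 2.05-fold higher. The JUN kinase gene MAPK9 was 1.91-fold higher. The factor gene creb1a and a MAPK14 row (ENSDARG00000000857), a p38 kinase, were 2.33-fold and 2.29-fold lower.

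DDIT4 and ATF3 also belong to slower stress programmes. Of 28 other stress response genes, 7 (25%) were at least 2-fold lower, against 25.7% of all genes. At least 2-fold higher were 5 (17.9%), against 25.3% of all genes. The median log2 ratio of the 28 was −0.18, near that of all genes. CHAC1 (ENSDARG00000070426), a glutathione-degrading enzyme induced with ATF4, had 19362.5 normalized reads in the GFP(−) library against 70492 in the GFP(+) library, 3.64-fold higher. GADD45A and sesn2, which respond to DNA damage and nutrient stress, were 6.01-fold and 7.35-fold higher. atf5a, CEBPD and sgk1 were 3.82-fold, 3.26-fold and 3.18-fold lower. On the mTORC1 side of DDIT4, 15 genes had a median log2 ratio of 0.35. The translation repressor genes EIF4EBP3 (ENSDARG00000041607) and eif4ebp3 (ENSDARG00000054916) were 3.93-fold and 3.76-fold lower, akt1s1, an inhibitor within mTORC1, was 3.42-fold lower, and the kinase gene rps6kb1a was 4.29-fold higher. TXNIP (ENSDARG00000036107) and TSC1 (ENSDARG00000026048) were 1.58-fold and 1.54-fold higher. MTOR itself had a log2 ratio of −0.47.

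Around BTG2, 16 other genes of the DNA damage response had a median log2 ratio of 0.27. Of these 7 (43.8%) were at least 2-fold higher and 1 (6.25%) at least 2-fold lower, against 25.3% and 25.7% of all genes. The 7 include both rows of CASP8, and GADD45A and sesn2, which were also counted among the stress response genes. The minimum mean of 1000, chosen after seeing the data, drops genes of lower level. Under it the count past 2-fold higher fell from 7 to 2, and that past 2-fold lower stayed at 1. The highest were genes of cell death. pmaip1, which encodes the BH3 protein NOXA, was 9.86-fold higher, with 311 and 3067 normalized reads. The death receptor gene fas had 42.5 and 344, and CASP8 (ENSDARG00000058347) 80.5 and 611.5, by deposited values 8.09-fold and 7.60-fold higher. The GFP(−) value of fas lies in the lowest range of the table, so the size of its fold is uncertain. SESN1 was 3.51-fold lower, and mdm2, a ubiquitin ligase gene, 1.88-fold lower. CCNG1 and cdkn1a were near equality, with log2 ratios of 0.17 and −0.15.

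Heat shock genes, another class induced by handling of cells, were found in 20 rows. At least 2-fold lower were 7 (35.0%) and at least 2-fold higher 6 (30.0%), near the shares of all genes, 25.7% and 25.3%. hsp70.3 was 3.37-fold higher, dnajb1b 3.95-fold and UBB 4.52-fold, whereas BAG3 and hsp90aa1.1 were 3.60-fold and 4.19-fold lower. SERPINH1, a collagen chaperone, had 2 rows. The row with both values above 48 (ENSDARG00000075954, 335.5 against 122) was 2.75-fold lower. The other had more reads in GFP(−) cells, 937, but a GFP(+) value of 48, and was at least 19.5-fold lower. HSPB8 and HSPB1, also with GFP(+) values of up to 48, were at least 11.3-fold and 6.18-fold lower. The hsp70 and ubiquitin genes have near-identical copies, so the assignment of their reads is uncertain.

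Likeness of pattern was measured as the distance of log2 values over the 2 libraries, for named genes with a mean of at least 100. The gene nearest to BTG2 was DDX5, an RNA helicase, at a distance of 0.09, and the gene nearest to JUN was BTG2, at 0.27. The second in order were RPS4Y2 for BTG2, at 0.25, and DDX5 for JUN, at 0.34. FOSB lay nearest to the ribosomal protein genes RPL12 and RPL19, at 0.07 each, JUNB to RPL23A and RPL17, at 0.19 and 0.24, and ATF3 to ATP5F1B and RPL23, at 0.10 and 0.11. FOS and egr1 had more distant neighbours, RPS2 and RPSA2 at 0.49 and 0.56 for FOS, and the ferritin gene fth1a and JUNB at 0.54 and 0.64 for egr1. The nearest genes to DDIT4 were FLOT1 and abca1b, at 0.03 and 0.06, and those to IER2 were MT-ND3 and PFKFB3, at 0.11 and 0.24. With 2 libraries this measure holds no more than the pair of values itself.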

How the data were processed

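RNA-seq of GFP(+) and GFP(−) cells, 1 library each, was analysed. The authors aligned reads to Zv9 with TopHat, counted them per Ensembl gene with HTSeq, quantile-normalized both libraries and set a floor of 20. Versions are not given in the sources used here. The deposited values are therefore a normalized signal and not counts, and the table's title names a minimum of 40 reads. Quantile normalization gave the libraries identical sets of values, so depth and precision are unknown.

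For each gene the ratio of the GFP(+) to the GFP(−) value was taken without a pseudocount. GFP(+) values of up to 48, held by 3329 genes (18.8%), mostly follow the GFP(−) value or the floor, so folds given against them were computed against 48 and are bounds. Counts past a fold and medians use the deposited values. No test was made. Folds of 2 and 3 describe size only. Names came from deposited symbols and a table of Ensembl identifiers that matched 14593 genes. Of the 10 names looked for, fosab matched no row. junba and junbb reached a row only without their final letter, and so did fosb for both FOS rows. List genes were matched in the same way, allowing a dropped final a or b, and 4 rows whose names belong to other genes were removed.

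All members were named. In each pathway list the genes named first were those with the 3 highest and the 3 lowest ratios among genes with a mean of at least 100 and a GFP(+) value above 48, and in the AP-1 family every gene. Some genes that this rule names are not reported here. For each member the 2 genes of nearest pattern were named. Of the marker lists, the 3 genes highest in reads are given for 3 lists only. Other genes were added for context after their values were seen. Members and lists were chosen with earlier results of these data known. Alternatives were pseudocounts of 20 and 100, minimum means of 100 and 1000, genes above the floor, GFP(+) values set to 48, centred ratios, other sources of names and summed copies. Sequences and genome coordinates were not used here. Python 3.11.15, numpy 2.4.6, pandas 2.3.3 and matplotlib 3.10.9 were used.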

Additional observations from a re-analysis of the deposited data

How the results depend on the processing

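No paired analysis was possible because each population has 1 library. With no replicates and no depth, a value was taken as moved when it shifted by over 1.5-fold. Of 66 values of single members under the alternatives, 65 kept their sign. Many could not change. The minimum means and the limit to genes above the floor only remove rows, which leaves the other ratios as they were. Setting GFP(+) values to 48 alters no member except the row near the floor. The exception was the row near the floor (si:ch211-153j24.3), whose log2 ratio went from −1.19 to 0.077 when GFP(+) values of up to 48 were set to 48. With a pseudocount of 100 it was −0.28. Centring on the median of all genes raised each log2 ratio by 0.10 and put IER2 past 3-fold, so that 1 row was at least 3-fold higher. With deposited symbols only, which leave IER2 and the row near the floor, the median was 0.18, 0 rows were at least 3-fold lower and 1 at least 2-fold lower. The remaining alternatives were chosen after seeing the data. With names from the identifier table only, which omit IER2 under that name, 0 rows were at least 2-fold higher. With a minimum mean of 1000, which drops DDIT4 and the row near the floor, 0 rows were at least 3-fold lower and 2 at least 2-fold lower. No median of a pathway list moved by over 1.5-fold. That of heat shock genes changed sign, from −0.19 to 0.11 with GFP(+) values set to 48 and to 0.22 with a minimum mean of 1000. Of all values of single members, ranks and counts in pathway lists, 156 stayed within that tolerance, 6 moved and 1, given above, reversed, and under the alternatives chosen after seeing the data 17 stayed and 7 moved. Those that stayed include values that an alternative could not change.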

Other observations

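Zebrafish carry many of these genes as a pair of copies, and the ratios of the copies were set side by side. Among the genes of the 8 lists, 27 pairs of rows had GFP(+) values above 48 and the same name once case, and a final a or b of a lower-case name, were ignored (ppp1r15a and ppp1r15b, separate genes in mammals, were left out). Of these, 11 pairs were lower in GFP(+) cells in both copies, 7 were higher in both, and 9 lay on opposite sides of equality. In 13 pairs the log2 ratios differed by at least 1. The limit was set on GFP(+) values alone, so pairs with a copy of up to 48 there were left out, and the counts depend on it. klf6b, with 43.5 normalized reads in GFP(−) and 67.5 in GFP(+) cells, passed it and is in a pair on opposite sides. Of all single genes, without this limit, 52.4% were lower in GFP(+) cells and 47.5% higher, which is not a share of pairs. The same counts were not made for unrelated pairs, so they do not tell whether copies are more or less alike than other genes. The widest gap was in csrnp1, where CSRNP1 had a log2 ratio of −0.74 and csrnp1a of 2.13, and the summed reads were level with a log2 ratio of 0.05. klf2a and klf2b had −0.43 and 2.23, and the KLF11 rows had −0.79 and 0.96. The MYC rows were alike at −2.88 and −2.76.

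DDIT4 shares its induction by glucocorticoids with sgk1, KLF9, tsc22d3, PER1 and FKBP5. This set was put together after the values were seen, is not complete and was not tested. How many other genes that respond to glucocorticoids were lower or higher in GFP(+) cells was not counted. sgk1 had 9022.5 normalized reads in the GFP(−) library against 2835 in the GFP(+) library, and KLF9 had 3722 and 1243. tsc22d3 had 3443.5 and 1562.5, and the PER1 rows had log2 ratios of −1.74 and −1.14. FKBP5 went the other way, with 15681.5 normalized reads in the GFP(−) library against 26272 in the GFP(+) library.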
